A study of Mus musculus with 12 samples.

Results

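The repeats described here are the 12 repeat names of class snRNA, small nuclear RNA, among 18538 repeat names counted in mouse embryos. They were taken by their class label alone, as U1, U2, U3, U4, U5, U6, U7, U8, U13, U13_, U14 and U17. Only 5 of them, U1, U2, U4, U5 and U6, name RNAs of the major spliceosome. U7 belongs to the machinery that cuts histone transcripts, and U3, U8, U13, U14 and U17 are names of small nucleolar RNAs, so the class is wider than the spliceosome. The 5 spliceosomal names nevertheless held 97.4% ± 0.343 of the class counts in KO and 98.0% ± 0.546 in WT (SD, n = 6 each). The RNAs of the minor spliceosome, U11, U12, U4atac and U6atac, have no name of their own in the class.

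KO libraries came from embryos that carried no working Kdm4a allele, because knockout oocytes had been fertilized with knockout sperm. WT libraries came from wild-type oocytes fertilized with the same kind of sperm, so these embryos lacked the paternal allele too and differed from KO in the maternal allele and in what the oocyte had stored. Kdm4a encodes a histone demethylase. All embryos were C57BL/6, at the 2-cell stage, 1.5 days after fertilization, with 6 libraries of ribosome-depleted total RNA in each group. The labels do not tell how many embryos a library holds or how many females gave oocytes, so the p-values measure the spread between these libraries. In such libraries fewer cells of a type and less RNA per cell cannot be told apart.

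The spliceosome removes introns from newly made transcripts. U1 pairs with the start of the intron and U2 with its branch point, after which U4, U5 and U6 join as a tri-snRNP, in which U4 holds U6 in check by base pairing until U6 takes part in catalysis. U1, U2, U4 and U5 are made by RNA polymerase II and U6 by RNA polymerase III. The mouse embryo begins broad transcription of its own genome at the 2-cell stage, while RNA stored by the oocyte is still present.

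Total counts ran from 7952526 to 18902360 per library. Rows were scaled by TMM, which sets the typical repeat equal between libraries, and levels are given as normalised CPM, counts per 1e+06 after this scaling. MERVL-int, the retroviral transcript that marks the 2-cell stage, averaged 32176 normalised CPM in KO and 66062 in WT, and was present in every library. It was lower in KO, without overlap of the groups (log2 fold change -1.04, edgeR adjusted p = 0.0159). The related repeat MT2_Mm was too (-0.92, edgeR adjusted p = 0.0229). Whether the groups differed in stage was not tested. No genes were in the tables, so neither Kdm4a nor marker genes of cells carried over with the oocyte could be looked at. Over all repeats, the first principal component set WT replicate 2 apart. On the second, the KO libraries (2.69 to 19.7) all lay above the WT libraries (-11.81 to -1.20). KO replicate 5, which had the fewest counts, had the highest value there. Values without WT replicate 2 are given for several results, though it was not always the library that moved them most.

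The names can be tied to known genes through RefSeq symbols, which matched 10 of the 12 names at 21 loci of GRCm38.p6 (the assembly that mm10 also denotes). Rnu1a1, a U1 gene of 164 bases, lies at chr11:87422867-87423030 within the bounds of Tex14. Rnu2-10, a U2 gene, lies between annotated genes at chr11:101658238-101658424. Rnu5g lies at chr9:65201726-65201841 inside the lncRNA Gm40527, and Rnu6 at chr17:13432033-13432139 outside any other gene. Among the nucleolar names, the matched U17 genes Snora73a and Snora73b lie inside the lncRNA Snhg3, and the U14 genes inside Hspa8 (Snord14c, Snord14d and Snord14e) or Rps13 (Snord14a). A count for a repeat name gathers every annotated copy in the genome, intact genes and scattered fragments alike, and RefSeq lists 1004 loci of biotype snRNA. The levels below are therefore levels of a name, and reads from a host transcript that spans a copy can be among them.

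The class was a small part of the repeat RNA. It took 0.129% ± 0.0402 of all counts in KO and 0.137% ± 0.0406 in WT (SD, n = 6 each), and the groups overlapped. The lowest, median and highest libraries had 0.0865%, 0.118% and 0.192% in KO, and 0.0675%, 0.155% and 0.176% in WT. In both groups the share differed by more than a factor of 2 between libraries. Without WT replicate 2, the lowest of all 12 libraries, the WT mean was 0.151% ± 0.0244 (n = 5).

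On the TMM scale the class summed to 1135 ± 251 normalised CPM in KO and 1502 ± 357 in WT (SD, n = 6 each). Without WT replicate 2 the WT sum was 1627 ± 207 (n = 5). The KO sum lay below the WT median in 6 of 6 libraries, yet every KO library lay within the WT range, and WT replicate 2 was lower than all of them. Scaling by total counts moved the median log2 fold change of all tested repeats to 0.32, against 0.01 with TMM. LTR retrotransposons, the largest class, made up 47.7% ± 2.88 of the counts in KO and 55.9% ± 2.05 in WT. Fold changes below are therefore relative to the typical repeat.

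Set against the length of a matched gene, U2 and U1 were the most abundant names. U2 averaged 247 ± 49.6 normalised CPM per 100 bases in KO and 309 ± 79.8 in WT, and U1 averaged 198 ± 78.9 in KO and 301 ± 93.2 in WT (SD, n = 6 each). These neighbours did not differ beyond their spread in either group. U6 followed with 100.04 ± 14.9 per 100 bases in KO and 105 ± 10.02 in WT, then U5 with 52.9 ± 6.10 in KO and 51.7 ± 5.70 in WT. U4 had no gene matched by symbol and has no place in this order. The nucleolar names and U7 lay far below, all under 10 per 100 bases on average, and there U8, U17, U3 and U14 overlapped one another.

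**Figure D1:**
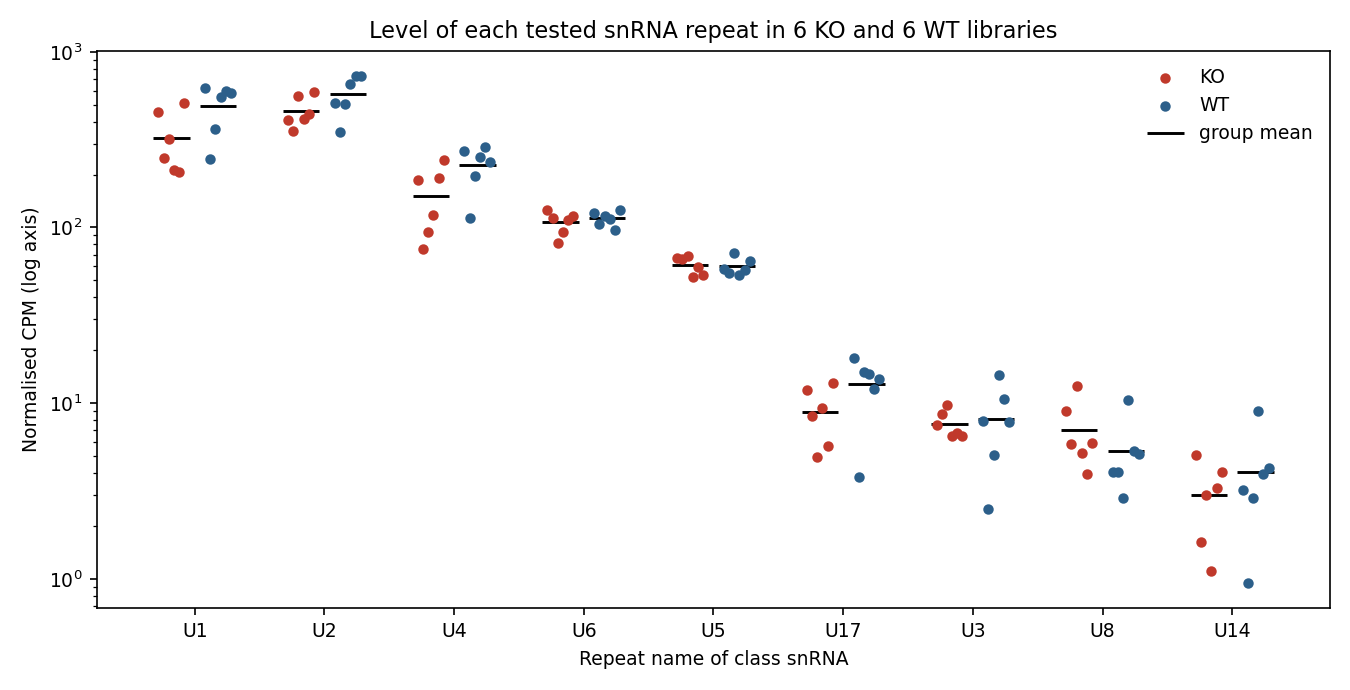
Each point is a library's level of a tested snRNA repeat in normalised CPM on a log axis, KO left of WT, with the group mean as a bar. The groups overlap for all 9 names, and U5 and U6 spread less between libraries than U1, U2 and U4.

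Of the 12 names, 9 passed the filter on low counts and were tested among 3312 repeats. The quasi-likelihood test of edgeR, adjusted over all repeats at a threshold of 0.05, called 0 of the 9, where it called 1.42% of all tested repeats. DESeq2 and limma-voom with quality weights called 0 as well, where they called 5.1% and 2.11% of all repeats. At an unadjusted p under 0.05, edgeR and DESeq2 each had 1 of the 9 lower and limma-voom 4 lower, and none had any of the 9 higher. Over all tested repeats 7.91% were lower by that mark with edgeR, 8.54% with DESeq2 and 9% with limma-voom. No name had groups that did not overlap, which 2.11% of all tested repeats had.

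The fitted log2 fold changes, KO over WT, were negative for 7 names and positive for 2, with a median of -0.33. Over all tested repeats the median was 0.01, and the middle 50% lay between -0.22 and 0.23. Among the 6 names that averaged 10 normalised CPM or more the median was -0.43, beside -0.01 over the 1445 repeats above that level.

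**Figure D2:**
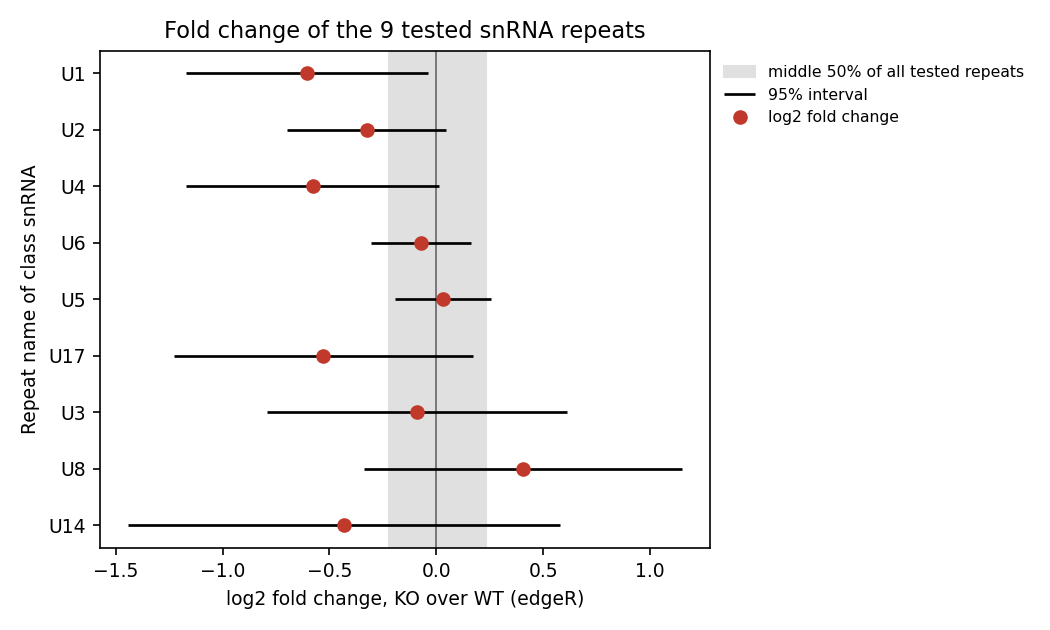
Points are edgeR log2 fold changes, KO over WT, of the 9 tested snRNA repeats with 95% intervals as lines, and the grey band holds the middle 50% of all tested repeats. U1 has the lowest value at -0.60, and the intervals of U5 and U6 are the narrowest.

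U1, which recognises the start of the intron, had the most negative value of the 9 tested names, with U4 close to it. U4 was the more negative in 8 of 25 other settings, limma-voom among them (-0.784 for U4 and -0.780 for U1). For U1, the lowest, median and highest libraries had 208, 283 and 513 normalised CPM in KO, and 244, 568 and 618 in WT. Each of the 6 KO libraries was under the WT median, 2 were under every WT library, and KO replicates 1 and 6 stood clearly above the other 4 and WT replicates 2 and 3 below the other 4. The means were 325 ± 129 in KO and 494 ± 153 in WT (SD, n = 6 each). This was a log2 fold change of -0.60 (SE 0.26, 95% interval -1.17 to -0.04), with an edgeR p of 0.0383 and an adjusted p of 0.322. Over the removal of single libraries the U1 value ran from -0.78 without KO replicate 6 to -0.50 without KO replicate 5. Without WT replicate 2 it was -0.73 (edgeR adjusted p = 0.181), and without both WT replicate 2 and KO replicate 5 it was -0.64 (edgeR adjusted p = 0.248). Total-count scaling gave -0.28 (edgeR adjusted p = 0.595), where the typical repeat stood at 0.32.

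U4, the partner that keeps U6 inactive, showed a similar difference. It had 75.6, 153 and 242 normalised CPM in the lowest, median and highest KO libraries, and 113, 243 and 288 in the WT ones. Here too every KO library lay below the WT median and 2 of 6 below all WT libraries, with KO replicates 2 and 3 at the bottom. U4 had a log2 fold change of -0.58 (SE 0.28, 95% interval -1.17 to 0.01, edgeR adjusted p = 0.388). Over the removal of single libraries the U4 value ran from -0.76 without KO replicate 6 to -0.44 without KO replicate 2. Without KO replicate 3 it was -0.48. Without both WT replicate 2 and KO replicate 5, a pair chosen after seeing the data, it was -0.79 (edgeR adjusted p = 0.226). Total-count scaling gave -0.25 (edgeR adjusted p = 0.646).

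U2, which pairs with the branch point, differed less. Its libraries had 356, 426 and 589 normalised CPM at the lowest, median and highest in KO, and 349, 583 and 727 in WT. No KO library lay below all WT libraries, and WT replicate 2 was again the lowest. Its log2 fold change was -0.33 (SE 0.17, 95% interval -0.70 to 0.05, edgeR adjusted p = 0.449), and -0.02 under total-count scaling. Without WT replicate 2 it was -0.43 (edgeR adjusted p = 0.197).

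U6, the catalytic RNA, differed little between the groups. It had 81.8, 112 and 126 normalised CPM at the lowest, median and highest in KO, and 96.1, 114 and 126 in WT. On the log2 scale U6 differed by -0.07 (SE 0.11, edgeR adjusted p = 0.870), with a 95% interval of -0.30 to 0.16. That interval is for the difference relative to the typical repeat. The sign turned under total-count scaling (0.25, below the 0.32 of the typical repeat), and the value ran from -0.12 without WT replicate 5 to -0.0048 without KO replicate 3.

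U5, which aligns the exons, was the least variable spliceosomal name together with U6. It had 52.3, 63.0 and 68.5 normalised CPM at the lowest, median and highest in KO, and 53.7, 57.6 and 71.1 in WT. U5 had a log2 fold change of 0.03 (SE 0.11, 95% interval -0.19 to 0.26, edgeR adjusted p = 0.953). Its sign turned in 3 of 25 other settings, with values no lower than -0.03. Under total-count scaling U5 stood at 0.34 (edgeR adjusted p = 0.0917), next to 0.32 for the typical repeat.

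The names differed in how much they varied between libraries. The coefficient of variation of U1 was 39.8% over KO and 31.0% over WT libraries, that of U4 42.9% and 28.1%, and that of U2 20.1% and 25.8%. U6 had 14.9% in KO and 9.53% in WT, and U5 had 11.5% in KO and 11.02% in WT. For comparison, the 627 repeats outside the class with a mean between 50 and 1000 normalised CPM had a median coefficient of 13.6% in KO and 12.5% in WT. In KO, 8 of these 627 varied more than U1, 5 more than U4, 259 more than U6 and 396 more than U5. U1, U2 and U4 are the 3 more variable spliceosomal names. The WT values of these 3 names rested in part on WT replicate 2. Without it U1 had 18.9%, U2 17.6% and U4 14.2% over 5 libraries, beside a median of 11.1% for the 627 repeats. Of those repeats, 70 then varied more than U1, 90 more than U2 and 192 more than U4. Counting error alone is at most 2.37% for U1, at its lowest count of 1781, and at most 4.64% for U5, below the spread between libraries for both.

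Ratios within a library need no scaling between libraries. The log2 ratio of U1 to U6 counts was 1.52 ± 0.51 in KO and 2.07 ± 0.52 in WT (SD, n = 6 each), and 6 of 6 KO libraries were under the WT median, 3 of them under all of WT. The log2 ratio of U4 to U6 was 0.40 ± 0.57 in KO and 0.95 ± 0.50 in WT. Here 5 of 6 KO libraries were below the WT median, 1 of them below all of WT. Without WT replicate 2 the WT ratios were 2.24 ± 0.36 for U1 and 1.12 ± 0.31 for U4 (n = 5). For U5 to U6 the ratio was -0.80 ± 0.29 in KO and -0.91 ± 0.15 in WT, and without KO replicate 3, which had -0.26, the KO ratio was -0.91 ± 0.13 (n = 5). Ratios to U2, the most abundant name, differed less in their means. The log2 ratio of U1 to U2 was -0.57 ± 0.48 in KO and -0.26 ± 0.28 in WT. For U4 to U2 it was -1.70 ± 0.60 in KO and -1.37 ± 0.26 in WT. Below the WT median lay 4 of 6 KO libraries for U1 to U2 and 3 of 6 for U4 to U2. All of these were also below every WT library, more than for the ratios to U6. For U1 to U2, KO replicate 2 was so only narrowly (-0.5152, beside -0.5144 in WT replicate 2). Over all 12 libraries, the differences of means in the ratios to U6 were close to 1 SD between libraries for U1 and U4. For U5 the difference was under 1 SD. No test was made of any of these ratios.

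As shares of the class, U1 took 27.9% ± 5.75 in KO and 32.3% ± 3.79 in WT, and U4 took 13.1% ± 4.08 in KO and 14.9% ± 1.55 in WT (SD, n = 6 each). U2 held the largest share, 41.1% ± 5.79 in KO and 38.5% ± 3.40 in WT. U6 stood at 9.72% ± 2.13 in KO and 7.93% ± 2.30 in WT, and U5 at 5.61% ± 1.29 in KO and 4.25% ± 1.34 in WT. Every pair overlapped. The makeup was not fixed among KO libraries: U4 ranged from 8.21% in replicate 3 to 18.5% in replicate 5, and U1 from 20.2% in replicate 5 to 35.4% in replicate 1.

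**Figure D3:**
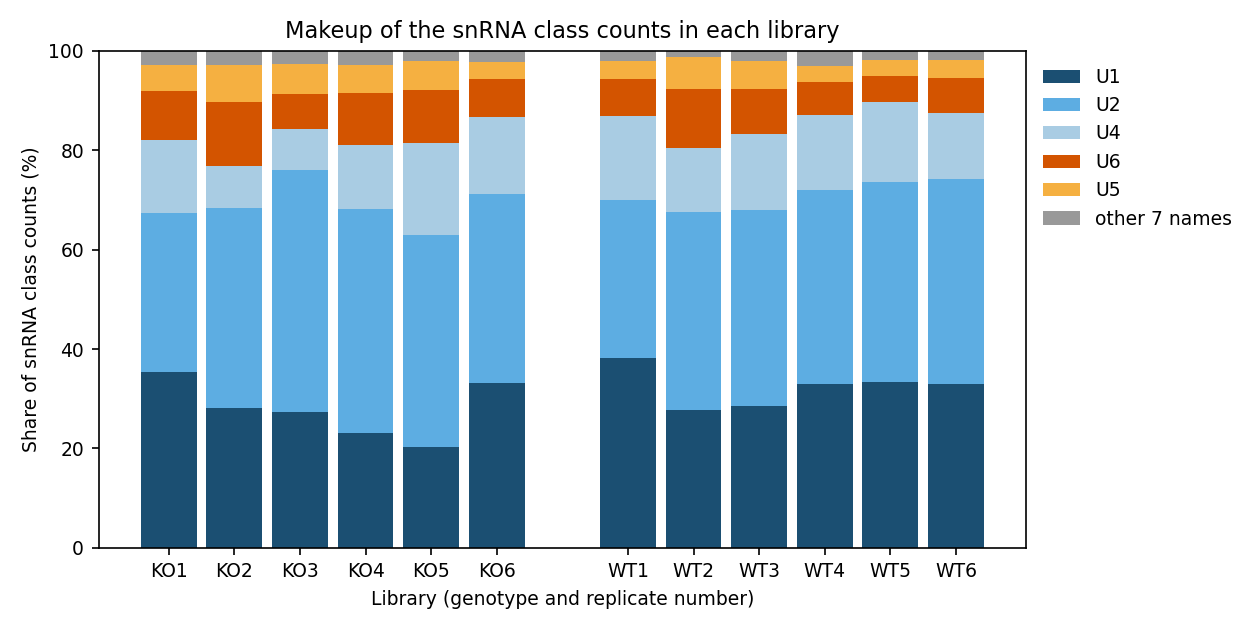
Stacked bars give the share of snRNA class counts, in percent, that each name held in every library, KO replicates left of WT replicates. U1, U2 and U4 together fill 76.9% to 86.7% of the class in KO and 80.4% to 89.6% in WT.

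The nucleolar names were scarce. U17, which guides an early cut of the ribosomal precursor RNA, had 4.94, 8.96 and 13.1 normalised CPM at the lowest, median and highest in KO, and 3.81, 14.2 and 17.97 in WT. Each KO library was under the WT median, while WT replicate 2 was under all of them. Its log2 fold change was -0.53 (SE 0.33, edgeR adjusted p = 0.536). Without WT replicate 2 it was -0.71 (edgeR adjusted p = 0.210).

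U3, the RNA at the heart of small-subunit processing, averaged 7.64 ± 1.33 normalised CPM in KO and 8.07 ± 4.21 in WT, a log2 fold change of -0.09 (SE 0.33, edgeR adjusted p = 0.959) whose sign turned in 4 of 24 other settings, total-count scaling among them. U14, which takes part in processing of the same subunit, averaged 3.02 ± 1.47 in KO and 4.05 ± 2.70 in WT (log2 fold change -0.43, edgeR adjusted p = 0.787). WT replicate 4 was the highest library for both names, and without it the U14 value was -0.02.

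U8, needed for the large ribosomal subunit, was the only tested name besides U5 with a positive value. It had 3.97, 5.89 and 12.5 normalised CPM at the lowest, median and highest in KO, and 2.89, 4.58 and 10.4 in WT. KO replicate 3 and WT replicate 4 stood well above their groups. U8 had a log2 fold change of 0.41 (SE 0.35, edgeR adjusted p = 0.688), 0.17 without KO replicate 3 and 0.72 without WT replicate 4. As few as 34 counts lay behind a library's value, a counting error of 17.1%.

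U7, U13 and U13_ did not pass the filter and were not tested with all 12 libraries. U7 had 135 counts over the 6 KO libraries and 32 over the 6 WT libraries, but 78 of the KO counts came from replicate 6, and 57 remained over the other 5. U13 had 62 counts in KO and 35 in WT, with 1 library at 0 in each group. U13_ had 46 counts in KO, 32 of them in replicate 4, and 21 in WT. With no filter U7 had a log2 fold change of 1.77 (SE 0.93, edgeR adjusted p = 0.286), and U13 and U13_ had edgeR adjusted p of 0.773 and 0.746. U7 also passed the filter in 7 of the 12 fits that left out 1 library, with its smallest edgeR adjusted p, 0.254, without KO replicate 2.

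The other structural RNAs of the tables were set beside the class: 71 names of classes RNA, scRNA, srpRNA, rRNA and tRNA. Of the 48 that were tested, 0 passed the adjusted test of edgeR, and at an unadjusted p under 0.05 there were 9 lower and 1 higher. Over all tested repeats that mark held 7.91% lower and 5.5% higher. Their median log2 fold change was -0.19. The 7SK RNA, which holds back the elongation factor P-TEFb, averaged 1963 ± 399 normalised CPM in KO and 2955 ± 849 in WT (SD, n = 6 each), with a log2 fold change of -0.59 (SE 0.21, edgeR adjusted p = 0.175), a value next to that of U1. The log2 ratio of U1 to 7SK within a library was -2.66 ± 0.44 in KO and -2.59 ± 0.24 in WT. The log2 ratio of 7SK to U6 was 4.18 ± 0.45 in KO and 4.65 ± 0.50 in WT.

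The ribosomal RNA repeats had negative values too, none of which passed the adjusted test. The fold change was -0.79 for 5S, the small RNA of the large subunit (edgeR adjusted p = 0.192), -0.50 for SSU-rRNA_Hsa (edgeR adjusted p = 0.195) and -0.34 for LSU-rRNA_Hsa (edgeR adjusted p = 0.259). BC1_Mm, a small cytoplasmic RNA best known from neurons, had 0.01 (edgeR adjusted p = 0.979), 7SLRNA, the RNA of the signal recognition particle, had -0.16 (edgeR adjusted p = 0.931) and 4.5SRNA had -0.22 (edgeR adjusted p = 0.363). The rRNA class as a share of all counts, a measure of depletion, was 5.55% ± 0.775 in KO and 5.74% ± 0.488 in WT. With that share as a covariate U1 had -0.61 (edgeR adjusted p = 0.364) and U4 -0.73 (edgeR adjusted p = 0.226).

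WT replicate 2 was low in many of these RNAs and high in others. It was the lowest of all 12 libraries in 4 of the 9 tested snRNA names and the lowest of WT in 6. Its 7SLRNA level was 720 normalised CPM, beside 3336 to 7274 in the other WT libraries, and its 7SK level was 1369, beside 2887 to 3748. Its U5 and U6 levels, 55.4 and 105, lay within the range of the other WT libraries. It was the highest of all 12 libraries for 4.5SRNA (217 normalised CPM) and LSU-rRNA_Hsa (68527), and the highest of WT for BC1_Mm (598). What sets this library apart was not tested.

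**Figure D4:**
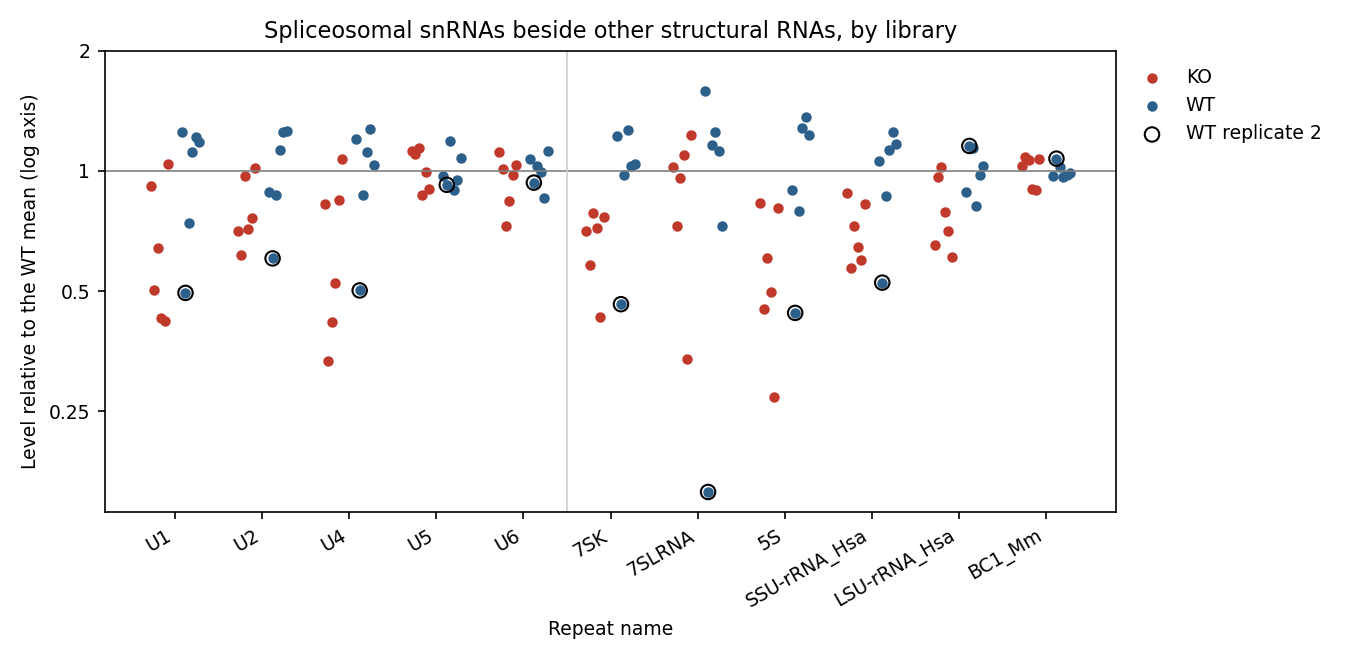
Each point is a library's level divided by the WT mean of that repeat, on a log axis, for the 5 spliceosomal names (left of the grey line) and 6 other structural RNAs, KO left of WT. WT replicate 2, ringed, lies near 0.5 for U1, U4, 7SK, 5S and SSU-rRNA_Hsa and near 1 for U5, U6 and BC1_Mm.

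The repeats whose pattern was most like that of U2, the most abundant name, were sought among 892 repeats outside the class. The measure was Pearson's r on log2(normalised CPM + 1) over the 12 libraries after subtraction of each group's mean, given as a description. The closest were the LINE L1MEb (r = 0.897), the LTR elements RLTR10 (r = 0.896) and MER34C_ (r = 0.868), the DNA transposon MER63A (r = 0.864) and tRNA-SeC_e_-TGA (r = 0.850). Without WT replicates 2 and 6, the libraries farthest from the median of U2, r was 0.882, 0.788, 0.720, 0.773 and 0.732 in that order. The median r of all 892 was -0.02. Points of 1 library share its depth and scaling.

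For U1, chosen for this after its values were seen, the closest were SSU-rRNA_Hsa (r = 0.902) and 5S (r = 0.895), with 0.860 and 0.832 without WT replicate 2 and KO replicate 5. The other named RNAs did not all run with U1: LSU-rRNA_Hsa had r = -0.581 and 4.5SRNA r = -0.586. For U6, SSU-rRNA_Hsa and 5S gave 0.174 and 0.124, and 7SK gave 0.762 with U1 and 0.03 with U6. The likeness was not particular to U1. With SSU-rRNA_Hsa, 5S and 7SK in that order, U2 gave 0.825, 0.728 and 0.679, and U4 gave 0.735, 0.517 and 0.453. U5 gave 0.056, 0.036 and 0.056.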

How the data were processed

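The authors deposited, for each of 12 libraries, an estimated count for every repeat name beside its class and family. All values were whole numbers, so rounding changed none. The submitters' processing notes name mm10, Trimmomatic 0.32 and edgeR without their roles. Which aligner and repeat annotation were used, and how strand and multi-mapping reads were treated, was not stated in the labels. Groups and replicate numbers came from the sample titles.

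All repeats were fitted in edgeR 4.0.16 (R 4.3.3) with filterByExpr, library sizes over all rows, TMM and the quasi-likelihood F test with genotype as the only term. Benjamini-Hochberg adjustment ran over the 3312 tested repeats with a threshold of 0.05. Standard errors came from the F statistic. DESeq2 1.42.0, limma 3.58.1 and other settings were alternatives. All 12 names of the class are reported. The members, roles and lists were chosen with earlier results of these data known. RefSeq loci were matched by symbol. No snRNA sequence was at hand, and none is printed.

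On simulated counts for the 3312 repeats of this comparison, with 200 changed, and looking at those of at least 10 CPM, edgeR found 52.8% of the 36 changed by 0.6 on the log2 scale, 84.0% of the 25 changed by 1 and 100% of the 27 changed by 2. Of 108 calls, 5 were unchanged repeats. The changed repeats were drawn at random, each with its own fitted spread, so these shares describe the typical repeat. They do not give the share for U1 or U4, which varied more between libraries than most repeats. The libraries have no molecular identifiers, so the counting errors given are lower bounds of the technical error.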

Additional observations from a re-analysis of the deposited data

Results flagged for a closer look

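The check covered 70 groups of 6 libraries: in KO and in WT, the levels of the tested snRNA names and the named structural RNAs, the class level and share, the class shares of the 5 spliceosomal names and the log2 ratios. In 5 of them the gap of the highest or lowest library to the next exceeded Dixon's 95% critical share of the whole range, which chance gives in about 1 of 20 groups. The U8 level of WT replicate 4 was 10.4 normalised CPM, beside 5.37 in the next WT library. U2 held 31.8% of the snRNA class counts in WT replicate 1, beside 39.0% in the next lowest, and the same library had the highest WT log2 ratio of U1 to U2, 0.267 beside -0.241. The log2 ratio of 7SK to U6 was 3.70 in WT replicate 2, beside 4.61 in the next lowest WT library, and the 7SK level of that library was 1369 normalised CPM, beside 2887.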

How the results depend on the processing

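The count of called snRNA names stayed at 0 under all 25 other settings of the fit: total-count, RLE and upper quartile scaling, removal of LTR, simple repeat and low complexity rows, DESeq2, limma-voom, a robust fit, other filters, covariates, a replicate block, the removal of each library and, chosen after seeing the data, of both WT replicate 2 and KO replicate 5. U1, U2, U4, U14 and U17 kept a negative and U8 a positive value in every setting that tested them. Signs turned for U3 with total-count scaling (0.17), with the replicate block (0.059), with library size as a covariate (0.095) and without WT replicate 4 (0.17), with -0.27 to 0.17 over the removal of single libraries. They turned for U5 without LTR, simple repeat and low complexity rows (-0.032), by limma-voom (-0.012) and without KO replicate 3 (-0.0025, and up to 0.087 without other single libraries), and for U6 with total-count scaling (0.25). The cause was not tested. The log2 ratio of the mean class share, KO over WT, ran from -0.24 without KO replicate 6 to 0.0003 without KO replicate 2, and was -0.34 among counts outside the LTR class.

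Same-numbered libraries had correlations of -0.131 to 0.198 over the tested repeats of at least 10 normalised CPM. The numbers were therefore not taken to pair libraries. Under the replicate block the SE fell from 0.28 to 0.14 for U4, from 0.17 to 0.12 for U2 and from 0.26 to 0.22 for U1. It rose from 0.47 to 0.51 for U14, from 0.33 to 0.39 for U3 and from 0.35 to 0.41 for U8. With the replicate block the smallest edgeR adjusted p was 0.0693, for U4 (log2 fold change -0.64), the smallest over all settings. The stricter filter left 6 names to test. Counts limit U7, U13 and U13_, while for U1, U2 and U4 the spread between libraries is the limit.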
